A study of Cervus nippon with 12 samples.

Results

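The miR-15/16 family was examined in cells of the sika deer antler. Its members were taken by name: every listed miRNA called miR-15, miR-16, miR-195, miR-424, miR-497 or miR-503, with any letter and with the 5p arm or no arm in its name, under the cattle names that were used for the deer reads. The rule gave 8 of the 545 listed names, namely miR-15a, miR-15b, miR-16a, miR-16b, miR-195, miR-424-5p, miR-497 and miR-503-5p. Small RNA had been sequenced from 12 libraries of wild-type (WT) cells, with 3 libraries in each of 4 groups. CP_0, CP_7 and CP_14 were reserve mesenchyme cells (RMCs), the stem-like cells of the growing antler tip, kept in chondrogenic medium for 0, 7 and 14 days. CC were cultured antler chondrocytes, for which no treatment is labelled. All cells came from antler tips of male deer aged 3 years, and RMCs and chondrocytes were cultured from different tissue layers, so that CC was not a later time point of the same culture. The labels do not say which deer gave which library. The p-values below therefore measure the spread between these libraries, which may be partly technical.

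A miRNA is cut from a hairpin and guides silencing proteins to messenger RNAs that match its seed, the short stretch near its 5′ end. The members of this family share a seed or most of it. They are known as brakes on the cell cycle, because their targets include cyclins and cyclin-dependent kinases of the step from G1 to S phase. Their sequences were not compared here. In mammals they are transcribed as neighbours from separate clusters: a miR-15 with a miR-16, miR-195 with miR-497, and miR-424 with miR-503 on the X chromosome. Which of the 2 miR-16 names lies beside which miR-15 in the deer was not examined, and they are paired here by letter only.

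Depth limited the day 7 libraries most. The CP_7 libraries held 539455 to 1032029 reads on listed miRNAs, against 2791559 to 4097304 in CP_0 and CP_14 and 9714090 to 10256572 in CC. A miRNA with 0 reads could be present at up to 5.56 RPM (reads per 1000000 reads on all listed miRNAs) in the shallowest CP_7 library and at up to 0.292 RPM in the deepest CC library (3 reads, counting error only). A single miRNA outside the family, miR-21-5p, took 23.2% of the reads in CP_7, 48.2% in CP_14, 60.3% in CP_0 and 75.2% in CC. Levels below are therefore RPM scaled by TMM (trimmed mean of M values) factors, which set the bulk of the miRNAs equal between libraries. The factors averaged 1.92 in CP_7 and 0.603 in CC. Of miRNAs known from cartilage, all 3 listed (miR-140, miR-455-5p and miR-455-3p) had reads in every library. Their summed RPM without TMM factors, 9043 to 10582 in CP_0 and 10111 to 11383 in CC, did not set the RMCs apart from the chondrocytes. On the TMM scale miR-140 was at 10312 to 11140 RPM at day 0, 4761 to 5376 at day 7, 9598 to 9987 at day 14 and 16313 to 17758 in chondrocytes, with a fall to day 7 (limma, log2 fold change -1.03, adjusted p = 2.65e-05) and a higher level in CC than in CP_14 (0.78, adjusted p = 1.23e-06). By the same test miR-455-3p rose to day 7 (1.43, adjusted p = 0.000434), and miR-455-5p was not called (0.25, adjusted p = 0.10). Without TMM factors miR-140 averaged 9443 RPM at day 0, 9759 at day 7, 9750 at day 14 and 10237 in chondrocytes. These means show no fall at day 7, so the fall of miR-140 depends on the scaling. miRNAs of blood cells stood apart in CP_0 replicate 3, at a summed 4223 RPM without TMM factors against 17.2 and 14.4 in the other CP_0 libraries. Changes of the members against CP_0 were therefore also computed without this library.

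All 8 members had reads in all 12 libraries and passed the filter on low counts in every comparison. Together they made up a small share of the reads, 0.0628% ± 0.0043 (SD, n = 3) at day 0, 0.0992% ± 0.0064 at day 7, 0.0696% ± 0.00065 at day 14 and 0.0453% ± 0.0021 in chondrocytes. Their summed TMM-normalized level was lowest at day 7. It was 691 to 727.8 RPM at day 0, 484.8 to 545.8 at day 7, 678.3 to 740.2 at day 14 and 734.6 to 784.9 in chondrocytes. The sum without TMM factors was in contrast highest at day 7, at 991.9 RPM against 453.4 to 696.4 RPM in the other groups, so the direction of the total depends on the scaling.

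miR-16b held most of the family's reads, at 72.1% ± 1.6 of them at day 0, 66.2% ± 3.3 at day 7, 70.3% ± 2.5 at day 14 and 73.5% ± 1.1 in chondrocytes. Shares within the family need no scaling between libraries. The share of miR-16a ran from 1.69% ± 0.46 in CC and 2.06% ± 0.23 in CP_0 to 5.52% ± 0.999 in CP_14 and 9.41% ± 0.62 in CP_7. The pair of miR-424-5p and miR-503-5p took the smallest share in CP_7, at 2.94% ± 0.19, and the largest in CP_14, at 9.83% ± 1.96. The pair of miR-195 and miR-497 took 7.13% ± 0.78 in CP_14 and 12.02% ± 0.23 in CC. Shares of different names describe reads and not molecules, since the capture of each miRNA by the library kit was not measured.

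**Figure D1:**
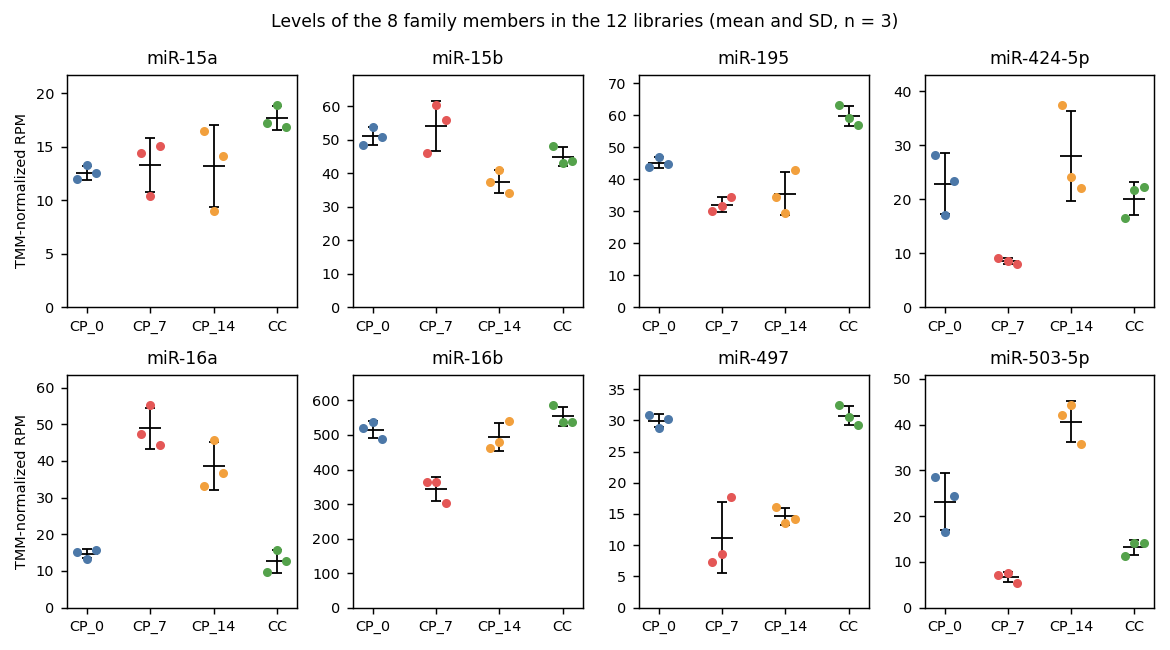
TMM-normalized level in RPM (linear axis from 0, a scale of its own in each panel) of each of the 8 members, with 1 point per library and bars for the mean and SD of the 3 libraries of each group. The 3 points of miR-16a in CP_7 (44.3 to 55.2) and CP_14 (33.3 to 45.9) lie above all those of CP_0 and CC, while those of miR-424-5p and miR-503-5p in CP_7 lie below all the others.

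The groups were compared in pairs with limma across all miRNAs tested, and a miRNA was called at an adjusted p below 0.05. From day 0 to day 7, 5 of the 8 members were called, 1 higher (miR-16a) and 4 lower (miR-16b, miR-424-5p, miR-497 and miR-503-5p), beside 63.8% of all miRNAs tested, 35.8% higher and 28% lower. The median log2 change of the members was -0.49, and that of all miRNAs tested was 0.075. From day 7 to day 14, 4 members were called, beside 52.8% of all miRNAs. miR-424-5p, miR-503-5p and miR-16b were higher and miR-15b was lower, beside 24.4% and 28.5% of all miRNAs, with a median of 0.22 over the members against -0.0089 over all.

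Over the whole course, CP_14 differed from CP_0 in 4 members, beside 46% of all miRNAs, with miR-16a and miR-503-5p higher (24.8% of all miRNAs) and miR-15b and miR-497 lower (21.2%). Chondrocytes differed from CP_14 in 4 members, beside 74.6% of all miRNAs. There miR-195 and miR-497 were higher in CC (37.7% of all miRNAs), and miR-16a and miR-503-5p lower (37%). Against CP_7, CC differed in 6 members, beside 67.4% of all miRNAs, 4 higher (miR-16b, miR-195, miR-424-5p and miR-497) and 2 lower (miR-15b and miR-16a), beside 29% and 38.4% of all miRNAs. Against CP_0, CC differed in 3 members, beside 55.8% of all miRNAs, with miR-195 higher (30% of all miRNAs) and miR-15b and miR-503-5p lower (25.8%). The share of members called was thus near or below that of all miRNAs in each comparison, and no count is a result about the family. The members differed in direction among themselves, and each of the 6 comparisons had calls both higher and lower. These comparisons share libraries and are not independent of each other. With a change of at least 2-fold required as well, 4 members were called in CP_7 against CP_0, beside 44.3% of all miRNAs, 2 in CP_14 against CP_7 (30.9%), 1 in CP_14 against CP_0 (19.2%), 3 in CC against CP_14 (35.5%), 2 in CC against CP_7 (47.8%) and 0 in CC against CP_0 (19.6%), where no member reached 2-fold. The groups did not overlap for 6 members in CP_7 against CP_0, beside 67.9% of all miRNAs, 5 in CP_14 against CP_7 (62.2%), 5 in CP_14 against CP_0 (56.4%), 6 in CC against CP_14 (78.6%), 7 in CC against CP_7 (70.7%) and 4 in CC against CP_0 (63.1%).

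**Figure D2:**
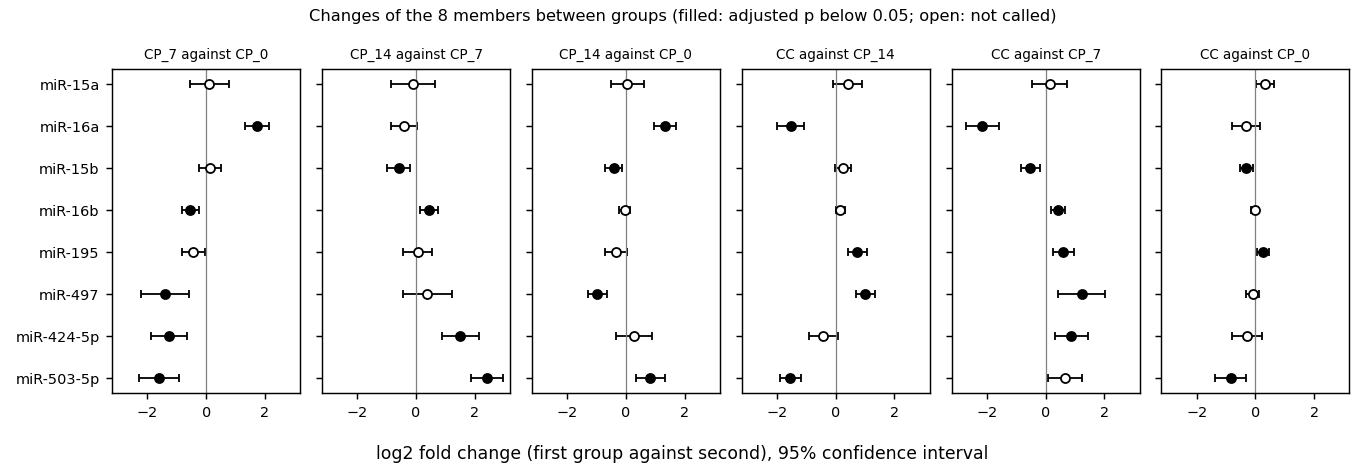
Log2 change of each member, on the scale of log2(TMM-normalized RPM + 1), in the 6 comparisons between groups, with bars for the 95% interval of the fit. Filled points passed an adjusted p of 0.05, and each panel has filled points on both sides of 0.

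miR-424-5p and miR-503-5p, the pair of the X chromosome cluster, were at their lowest at day 7. In CP_0 replicates 1 to 3, miR-503-5p was at 28.6, 16.4 and 24.4 RPM. The CP_7 libraries had 7.22, 7.48 and 5.32 RPM, from 11, 13 and 6 reads. The CP_14 libraries had 42.0, 44.2 and 35.7 RPM, and those of CC 11.3, 14.1 and 14.2. No 2 of the 4 groups overlapped, and the order of the means was CP_7, CC, CP_0 and CP_14. From day 0 to day 7 miR-503-5p fell (log2 fold change -1.61, SE 0.29, adjusted p = 0.00196), and from day 7 to day 14 it rose (2.42, SE 0.23, adjusted p = 0.000129). At day 14 it was also above day 0 (0.83, SE 0.21, adjusted p = 0.0157), a call that was lost without CP_14 replicate 1 (0.78, adjusted p = 0.0593) or replicate 2 (0.73, adjusted p = 0.0663). In CC it was lower than in CP_14 (-1.54, SE 0.16, adjusted p = 2.16e-05) and than in CP_0 (-0.84, SE 0.22, adjusted p = 0.0153). CC and CP_7 did not overlap, but the difference missed the threshold by a small margin (0.65, SE 0.25, adjusted p = 0.05002). It passed in 9 of the 18 alternatives run, among them leaving out CP_7 replicate 1 (1.03) or replicate 2 (1.18), and its sign turned with library size only (-0.61).

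The mean levels of miR-424-5p had the same order, but only CP_7 stood apart from the other groups. miR-424-5p was at 28.3, 17.01 and 23.4 RPM in CP_0, at 9.19, 8.63 and 7.98 in CP_7 (14, 15 and 9 reads), at 37.5, 24.2 and 22.1 in CP_14, and at 16.6, 21.7 and 22.2 in CC. CP_7 was below all the other libraries, and the other 3 groups overlapped. miR-424-5p fell by day 7 (-1.26, SE 0.26, adjusted p = 0.00427) and rose by day 14 (1.51, SE 0.26, adjusted p = 0.00256). The differences of CP_14 from CP_0 (0.28, SE 0.26, adjusted p = 0.40) and of CC from CP_14 (-0.43, SE 0.22, adjusted p = 0.10) were within the error, although the second passed without CP_14 replicate 3 (-0.59, adjusted p = 0.0457). CC was higher than CP_7 (0.88, SE 0.23, adjusted p = 0.0121), but not without CC replicate 2 (0.81, adjusted p = 0.0525) or replicate 3 (0.81, adjusted p = 0.0591). Without CP_7 replicate 2 the value was 1.36, and the sign turned with library size only (-0.42).

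Of 5 other listed miRNAs of the same X chromosome cluster (miR-424-3p, miR-450a, miR-450b, miR-503-3p and miR-542-5p), 3 could be tested in most comparisons. From day 0 to day 7, 2 of these 3 were called, both lower, beside 63.8% of all miRNAs called and 28% lower. miR-450a fell from 264.9 ± 4.0 to 93.97 ± 0.83 RPM (-1.44, SE 0.11, adjusted p = 2.98e-05). miR-450b fell from 177.1 ± 7.4 to 88.9 ± 24.3 RPM (-0.98, SE 0.21, adjusted p = 0.00481). From day 7 to day 14 all 3 were higher, beside 52.8% of all miRNAs called and 24.4% higher. The rise was 1.24 for miR-450a (adjusted p = 0.00011), 0.81 for miR-450b (adjusted p = 0.0170) and 0.99 for miR-424-3p (adjusted p = 0.0409). With library size only, miR-450a kept both calls (-0.37 and 0.38), while miR-450b was at 0.089 and -0.051 and was not called. The rises of the other two to day 14 were also lost under the size without miR-21-5p (0.52, adjusted p = 0.0673 for miR-450b and 0.75, adjusted p = 0.13 for miR-424-3p), and that of miR-424-3p with library size only (0.20, adjusted p = 0.64), so that 1 of the 3, miR-450a, was called higher under each of the 5 scalings. In CC against CP_14, miR-424-3p (-1.30, adjusted p = 0.000956) and miR-450a (-0.28, adjusted p = 0.0165) were lower, while miR-450b was higher (0.31, adjusted p = 0.0103). With library size only miR-450b was also lower (-0.40), and with the size without miR-21-5p miR-450a was not (0.062). miR-503-3p, the other arm of the miR-503 hairpin, had 9 reads over the day 0 libraries, 0 at day 7, 7 at day 14 and 6 in chondrocytes, and miR-542-5p had 5, 3, 22 and 37 reads in the same order. miR-503-3p passed the filter on low counts in no comparison. miR-542-5p passed it in CC against CP_14 alone, where the change was -0.067 (adjusted p = 0.85).

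In the second cluster, miR-497 was high in CP_0 and CC and low in the induced RMCs of both days. It was at 30.8, 28.8 and 30.2 RPM in CP_0, at 7.22, 8.63 and 17.7 in CP_7 (11, 15 and 20 reads), at 16.1, 13.6 and 14.1 in CP_14, and at 32.4, 30.6 and 29.3 in CC. CP_7 replicate 3 lay above the CP_14 libraries and the other CP_7 libraries below them, while CP_0 and CC were together above all of these. miR-497 fell by day 7 (-1.41, SE 0.35, adjusted p = 0.00908) and was still lower at day 14 than at day 0 (-0.97, SE 0.14, adjusted p = 0.00109). Between day 7 and day 14 it did not pass (0.39, SE 0.36, adjusted p = 0.39), but without CP_7 replicate 3 it did (0.82, adjusted p = 0.0469). CC was higher than CP_14 (1.01, SE 0.15, adjusted p = 0.000181), and also higher than CP_7 (1.22, SE 0.34, adjusted p = 0.0142), where the sign turned with library size only (-0.095). The difference of CC from CP_0 was -0.09 (SE 0.092, adjusted p = 0.46).

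The largest differences of its neighbour miR-195 were those between CC and the induced RMCs. Its level was 43.8, 47.0 and 45.0 RPM in CP_0, 30.2, 31.6 and 34.6 in CP_7, 34.3, 29.4 and 42.9 in CP_14, and 63.3, 59.1 and 57.1 in CC. All CC libraries were above those of the RMCs, and all CP_0 libraries were above those of CP_7 and CP_14. miR-195 was higher in CC than in CP_14 (0.74, SE 0.15, adjusted p = 0.0015). It was also higher in CC than in CP_7 (0.61, SE 0.14, adjusted p = 0.00762) and CP_0 (0.26, SE 0.083, adjusted p = 0.0319), but with library size only both of these signs turned (-0.75 and -0.14). The value against CP_7 was 0.94 without CP_7 replicate 1 and 1.11 without replicate 2. The call against CP_0 was lost without CP_0 replicate 1 (0.24, adjusted p = 0.0958) or 3 (0.27, adjusted p = 0.0675) and without CC replicate 1, 2 or 3 (0.23 to 0.29, adjusted p = 0.0568 to 0.102). The same call was lost with RLE factors (0.25, adjusted p = 0.0630), DESeq2 (0.22, adjusted p = 0.31) and no filter (0.26, adjusted p = 0.0602). Its decrease to day 7 missed the threshold (-0.44, SE 0.17, adjusted p = 0.0551) and passed without any 1 of the CP_7 libraries (-0.62, -0.61 and -0.57 without replicates 1, 2 and 3). That between CP_14 and CP_0 (-0.34, SE 0.16, adjusted p = 0.11) passed without CP_14 replicate 3 (-0.51, adjusted p = 0.0201).

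miR-16a was highest where miR-424-5p, miR-497 and miR-16b were lowest, at day 7. It was at 15.2, 13.3 and 15.7 RPM in CP_0, at 47.3, 55.2 and 44.3 in CP_7 (72, 96 and 50 reads), at 33.3, 45.9 and 36.8 in CP_14, and at 9.59, 15.8 and 12.6 in CC. The induced RMCs of both days were above all libraries of CP_0 and CC. miR-16a rose by day 7 (1.73, SE 0.18, adjusted p = 0.000145), and at day 14 it was still above day 0 (1.34, SE 0.16, adjusted p = 0.000496). CC was lower than CP_14 (-1.53, SE 0.21, adjusted p = 0.000121) and than CP_7 (-2.15, SE 0.23, adjusted p = 0.000186). Each of these 4 changes was called in the same direction in all 17 alternatives that keep miR-16a as a name. The fit with miR-16a and miR-16b summed, given below, does not keep it and is not among the 17. The differences of CP_14 from CP_7 (-0.42, SE 0.19, adjusted p = 0.0975) and of CC from CP_0 (-0.34, SE 0.20, adjusted p = 0.20) were not called.

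Its partner by letter, miR-15a, was called in none of the 6 comparisons with limma (adjusted p = 0.0607 to 0.90), edgeR or DESeq2, and 1 of the 6 had an unadjusted p below 0.05. The libraries held 11.96, 13.26 and 12.52 RPM in CP_0, 14.45, 10.35 and 15.07 in CP_7, 16.47, 9.04 and 14.12 in CP_14, and 17.26, 18.91 and 16.81 in CC. On these levels, with factors over the 12 libraries, CC lay above the other 3 groups, which overlapped. With the factors of CC and CP_7 alone, CC and CP_7 overlapped. The smallest adjusted p was that of CC against CP_0 (0.33, SE 0.12). Other settings did give calls. CC was called higher than CP_14 with upper-quartile factors (0.57, adjusted p = 0.0288), with the library size without miR-21-5p (0.77, adjusted p = 0.0140) and without CP_14 replicate 1 (0.57, adjusted p = 0.0425). It was called higher than CP_0 with the size without miR-21-5p (0.61, adjusted p = 0.00900), and against CP_7 higher with upper-quartile factors (0.63, adjusted p = 0.0459) but lower with library size only (-1.17, adjusted p = 0.00594). Library size only also called miR-15a higher by day 7 (1.12, adjusted p = 0.0113) and lower from there to day 14 (-0.92, adjusted p = 0.0461). miR-15a had only 17 to 22 reads in each CP_7 library, and the smallest change detectable at this depth was not computed.

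miR-16b, the most abundant member, was lowest at day 7. It was at 520.6, 537.7 and 489.0 RPM in CP_0, at 365.2, 363.5 and 304.0 in CP_7 (556, 632 and 343 reads), at 461.0, 480.2 and 540.3 in CP_14, and at 586.4, 537.5 and 538.6 in CC. CP_7 was below all the other libraries, which overlapped between groups. miR-16b fell by day 7 (-0.54, SE 0.12, adjusted p = 0.00585), rose by day 14 (0.44, SE 0.13, adjusted p = 0.0209) and stood above CP_7 in CC (0.41, SE 0.10, adjusted p = 0.00832), but with library size only all 3 signs turned (0.54, -0.42 and -0.97). The fall was -0.82 without CP_7 replicate 1, and CC stood 0.84 above CP_7 without that library and 0.98 above it without CP_7 replicate 2. The rise by day 14 was lost with the library size without miR-21-5p (0.15, adjusted p = 0.39) and also without CP_14 replicate 2 (0.45, adjusted p = 0.0668) or replicate 3 (0.36, adjusted p = 0.0709). Among all miRNAs tested, the change of miR-16b to day 7 stood at percentile 31.8, and that of miR-16a at percentile 83.3.

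miR-15b, its partner by letter, was lowest at day 14. It was at 48.5, 53.9 and 50.7 RPM in CP_0, at 46.0, 60.4 and 55.8 in CP_7, at 37.5, 41.0 and 34.0 in CP_14, and at 48.1, 43.0 and 43.8 in CC. All CP_14 libraries lay below the rest. miR-15b was lower in CP_14 than in CP_7 (-0.59, SE 0.16, adjusted p = 0.0180) and than in CP_0 (-0.42, SE 0.12, adjusted p = 0.0235), and lower in CC than in CP_0 (-0.31, SE 0.091, adjusted p = 0.0269). It was also lower in CC than in CP_7 (-0.52, SE 0.14, adjusted p = 0.0111), but without CP_7 replicate 2 that sign turned (0.071). The levels above, with factors over the 12 libraries, overlap between CC and CP_7. Each of these calls was lost in several alternatives, both of scaling and of the libraries used. The scaling or test ended the first with upper-quartile factors (-0.45, adjusted p = 0.0620), and the second with library size only (-0.26, adjusted p = 0.17) and DESeq2 (-0.46, adjusted p = 0.0615). The third, CC against CP_0, was at -0.046 with the size without miR-21-5p (adjusted p = 0.74), and was lost with upper-quartile factors (-0.27, adjusted p = 0.0811), DESeq2 (-0.37, adjusted p = 0.0789) and a fit of all 12 libraries (-0.18, adjusted p = 0.33). The fourth, CC against CP_7, was at -0.012 with upper-quartile factors (adjusted p = 0.95), and was lost with RLE factors (-0.37, adjusted p = 0.0531), the size without miR-21-5p (-0.29, adjusted p = 0.11) and the fit of all 12 libraries (-0.25, adjusted p = 0.12). CC against CP_14, not called with TMM, was called higher with upper-quartile factors (0.42, adjusted p = 0.0160) and with the size without miR-21-5p (0.59, adjusted p = 0.00144), and lower with library size only (-0.44, adjusted p = 0.0215). Among libraries, the first was lost without CP_7 replicate 2 (-0.43) or 3 (-0.49) or CP_14 replicate 1 (-0.57) or 3 (-0.54), the second without CP_0 replicate 1 (-0.45) or 2 (-0.37) or CP_14 replicate 1 (-0.45), the third without CP_0 replicate 2 (-0.24) or 3 (-0.30) or CC replicate 2 (-0.28) or 3 (-0.29), and the fourth also without CP_7 replicate 1 (-0.26) or 3 (-0.26).

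The names miR-16a and miR-16b stand for mature miRNAs of nearly the same sequence, so a read may have been counted under either name or under both. Other pairs of names did hold the same reads: miR-26a had 239984 and miR-26c 239976 over the 12 libraries. How many reads miR-16a and miR-16b share was not measured, and the sum of both names may hold a read more than once. The reads under miR-16b were 30.8 to 40.1 times those under miR-16a at day 0, 6.55 to 7.68 times at day 7, 10.4 to 14.6 times at day 14 and 33.8 to 60.6 times in chondrocytes. This ratio was looked at after the values were seen and was not tested. With both names summed, the level fell by day 7 (-0.38, adjusted p = 0.0246), rose by day 14 (0.36, adjusted p = 0.0396) and stood above CP_7 in CC (0.26, adjusted p = 0.0470). The sum did not pass in the other comparisons (0.021 for CP_14 against CP_0, 0.085 for CC against CP_14 and -0.029 for CC against CP_0). miR-16b holds most reads of the sum, so the sum follows miR-16b and cannot show whether miR-16a changed. The 4 calls of miR-16a are calls of the name as counted.

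The ratio of reads between partners within a library needs no scaling, and was compared over the 4 groups with an exact permutation test of F, adjusted over 5 ratios. Each p belongs to the 4 groups together. It does not test the pair of groups named with it, which was picked as the highest and the lowest. miR-15a to miR-16a was 0.857 at day 0, 0.274 at day 7, 0.337 at day 14 and 1.42 in chondrocytes (means of log2 ratios). The log2 difference between its highest and lowest groups, CC and CP_7, was 2.37 (exact p = 0.00123, adjusted p = 0.00206). miR-15b to miR-16b was 0.0993, 0.157, 0.0762 and 0.0812 in the same order, with a log2 difference of 1.05 between CP_7 and CP_14 (exact p = 0.000584, adjusted p = 0.00146). The partners by letter were thus not in a fixed ratio in either pair. The order of the groups was not tested, and some groups overlapped. For miR-15a to miR-16a the libraries ran from 0.192 to 0.347 in CP_7 and from 0.2 to 0.497 in CP_14. For miR-15b to miR-16b they ran from 0.0633 to 0.0857 in CP_14 and from 0.0801 to 0.0822 in CC.

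The ratio of miR-424-5p to miR-503-5p was 0.994 at day 0, 1.28 at day 7, 0.673 at day 14 and 1.52 in chondrocytes, a log2 difference of 1.17 between CC and CP_14 (exact p = 0.00013, adjusted p = 0.000649). That of miR-195 to miR-497 was 1.51, 3.03, 2.40 and 1.94 in the same order, a log2 difference of 1.01 between CP_7 and CP_0 (exact p = 0.0197, adjusted p = 0.0247). The arms of the miR-424 hairpin, 5p to 3p, stood at 4.16, 1.57, 2.25 and 4.81, a log2 difference of 1.61 between CC and CP_7 (exact p = 0.0366, adjusted p = 0.0366). These last 2 ratios were less firm. Leaving out single libraries raised the adjusted p of miR-195 to miR-497 above the threshold in 8 of 12 cases (any CP_0 library, CP_7 replicate 1 or 2, CP_14 replicate 2, CC replicate 2 or 3, up to 0.0842) and that of the miR-424 arms in 9 of 12 (any CP_0 library, CP_7 replicate 2 or 3, CP_14 replicate 2 or 3, CC replicate 2 or 3, up to 0.0929).

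**Figure D3:**
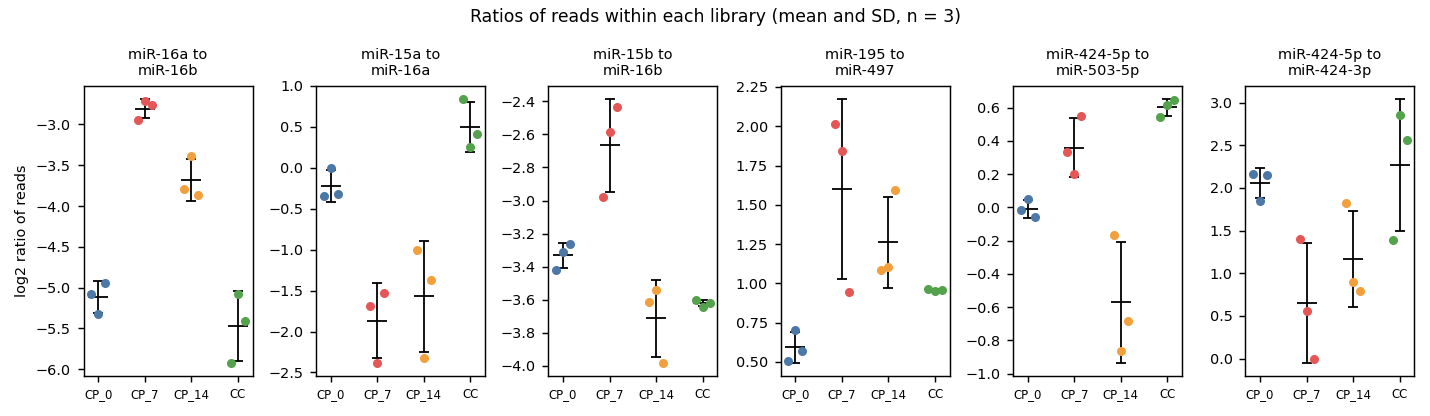
Log2 ratio of reads within each library for the 5 pairs tested and, in the first panel, for miR-16a to miR-16b, which was not tested, with 1 point per library, bars for the mean and SD of 3 libraries, and a scale of its own in each panel. The ratio of miR-15a to miR-16a in CP_7 and CP_14 lies below all libraries of CP_0 and CC, and the ratio of miR-424-5p to miR-503-5p is lowest in CP_14 and highest in CC.

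Levels relative to the total of reads gave another picture from levels relative to the bulk of miRNAs. With library size only, the median of all miRNAs tested moved from 0.075 to 1.12 in CP_7 against CP_0, from -0.0089 to -0.84 in CP_14 against CP_7 and from 0.086 to -0.54 in CC against CP_14. In the first of these 5 members were then higher and 0 lower, beside 152 and 20 of the 246 miRNAs tested. There miR-424-5p (-0.25), miR-497 (-0.39) and miR-503-5p (-0.61) kept their sign but were not called. In the second 1 member (miR-503-5p) was higher and 5 were lower, beside 26 and 138 of 246, while the call of miR-424-5p was lost (0.69). In the third 0 were higher and 5 lower, beside 40 and 163 of 276. The calls of miR-195 (0.043) and miR-497 (0.34) were lost there. The change of miR-16b to day 7 was below the median of all miRNAs under both scalings, at -0.54 beside a median of 0.075 with TMM and at 0.54 beside a median of 1.12 with library size only. Another scaling moves all miRNAs nearly alike, so this place below the median is kept by construction and is no separate support for a fall. Over all 6 comparisons, 8 of the 26 calls held in the same direction in every alternative fit that keeps the name: the 4 of miR-16a, that of miR-497 between CP_14 and CP_0, and those of miR-503-5p in CP_14 against CP_7, CC against CP_14 and CC against CP_0. The sum of miR-16a and miR-16b, which did not follow the calls of miR-16a, is not counted here.

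**Figure D4:**
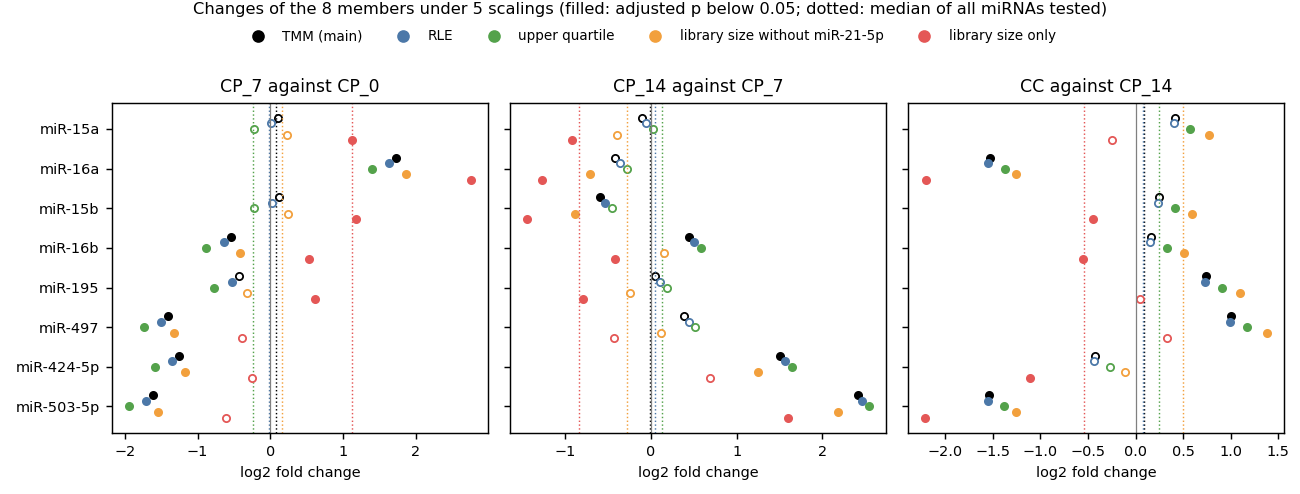
Log2 change of each member under 5 scalings of the libraries, in CP_7 against CP_0, CP_14 against CP_7 and CC against CP_14, with filled points for an adjusted p below 0.05 and dotted lines at the median of all miRNAs tested under that scaling. Library size only shifts the members together with that median (to 1.12, -0.84 and -0.54), and turns the sign of miR-16b in all 3 panels.

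Other miRNAs known to act on the cell cycle were counted for comparison. Of 13 tested miRNAs of the let-7, miR-26 and miR-34 families, further brakes on proliferation, 12 were called from day 0 to day 7, 11 higher and 1 lower, beside 63.8% of all miRNAs, 35.8% higher and 28% lower. Among them were let-7c, higher (2.03, adjusted p = 1.82e-05), and miR-34c, lower (-4.19, adjusted p = 0.00306). miR-34c had 0 to 4 reads in the CP_7 libraries and 47 to 273 in those of CP_0. Its change without CP_0 replicate 3 was not examined. From day 7 to day 14 again 12 of 13 were called, 1 higher and 11 lower, beside 52.8% of all miRNAs, 24.4% and 28.5% in these directions, among them let-7c (-2.45, adjusted p = 1.53e-05). Since miR-26a and miR-26c hold practically the same reads, the 13 names are 12 separate counts, of which 10 were higher and 1 lower to day 7, and 1 higher and 10 lower to day 14. The number called varied with the scaling. Of the 10 higher to day 7, 6 were also called higher with upper-quartile factors, 9 with RLE factors and 10 with library size only or the size without miR-21-5p, and of the 10 lower to day 14, 7, 9 and 10 in the same order. In CC against CP_14, 8 of the 12 were higher and 3 lower with TMM, but 1 was higher and 8 lower with library size only. Of the clusters known to promote proliferation (those of miR-17, miR-25, miR-93, miR-106 and miR-363 with their relatives), 7 of 9 tested were called to day 7, all lower (28% of all miRNAs), although with library size only 2 came out higher and 1 lower. The largest changes were those of miR-18a (-2.31, adjusted p = 0.000454) and miR-19b (-1.48, adjusted p = 0.0253). In CC against CP_14, 11 of 11 were called, 10 higher and 1 lower (7 and 3 with library size only), beside 74.6% of all miRNAs, 37.7% higher and 37% lower, with miR-93 at 2.31 (adjusted p = 2.55e-07). miR-103 and miR-107 have a seed that overlaps that of the miR-15/16 family. Both were lower in CP_14 than in CP_0 (-0.63 and -0.62), beside 21.2% of all miRNAs. With library size only miR-107 was not called there (-0.46, adjusted p = 0.0655). Both were higher in CC than in CP_14 (0.32 and 0.64), beside 37.7% of all miRNAs, but both signs turned with library size only (-0.39 and -0.064). Elsewhere they were not called together. miR-103 alone was lower in CP_7 (-0.59) and in CC (-0.45) than in CP_0. miR-107 alone was lower in CP_14 than in CP_7 (-0.52), and neither was called in CC against CP_7.

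Across the 12 libraries, levels of neighbours moved together in both clusters outside the miR-15/16 pairs. Pearson's r of log2(TMM-normalized RPM + 1) was 0.90 for miR-424-5p with miR-503-5p and 0.84 for miR-195 with miR-497, but -0.46 for miR-15a with miR-16a and -0.46 for miR-15b with miR-16b. miR-16a ran opposite to miR-497 (-0.92), miR-195 (-0.91) and miR-16b (-0.76). The libraries share 4 groups, depths and TMM factors, so these values are descriptions. The non-member most alike among 167 miRNAs was miR-3604 for miR-16a (r = 0.97; its 290521 reads were nearly those of miR-199a-3p, 290645), miR-450b for miR-16b (0.98), miR-30e-5p for miR-195 (0.95), miR-23b-3p for miR-497 (0.94), miR-143 for miR-503-5p (0.95), miR-24-3p for miR-424-5p (0.92), miR-2478 for miR-15b (0.74) and miR-574 for miR-15a (0.60).

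Markers of other cells differed between groups, and those of blood cells also between the CP_0 libraries. The 5 muscle miRNAs (miR-1, miR-133a, miR-133b, miR-133c and miR-206) were summed in RPM without TMM factors. Their sum ran from 4540 to 6637 at day 7 and from 1687 to 1757 at day 14. It was 721 to 754 in chondrocytes and 537 to 684 at day 0. miR-1 held most of this sum. On the TMM scale it averaged 2630 RPM at day 7, 1610 at day 14, 1149 in chondrocytes and 641 at day 0. In both cases the order of groups was that of the mean TMM-normalized miR-16a level, except for CP_0 and CC. Of the muscle miRNAs, 4 or 5 had reads in each library. Of the 7 blood miRNAs, 3 to 7 had reads in each library. Their summed RPM without TMM factors was 23.4 to 162.8 at day 7, 14.4 to 4223 at day 0, 3508 to 5200 at day 14 and 1394 to 1468 in chondrocytes. Erythroid miR-451 had 6039 to 6933 reads in CP_0 replicate 3 and in each CP_14 and CC library, and 2 to 29 reads in the other libraries. The depth of the libraries with the higher counts ran from 2791559 to 10256572 reads, and the source of their miR-451 reads was not tested. The part of these cells in the changes of the members was not tested, and fewer cells of a type and less RNA per cell cannot be told apart in such bulk libraries. Without CP_0 replicate 3, the changes of CP_7 against CP_0 kept 5 calls, among them miR-16a (1.75), miR-16b (-0.60) and miR-503-5p (-1.59), and those of CP_14 against CP_0 kept 4. In CC against CP_0, 1 of 3 calls was left, that of miR-503-5p (-0.78, adjusted p = 0.0280).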

How the data were processed

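RMCs and chondrocytes had been cultured from antler tips of 6 deer, with 3 biological replicates for each tissue type, and total RNA was turned into libraries with a small RNA kit (NEBNext). For each library the authors deposited 1 value per listed miRNA in RPM (reads per 1000000 reads on all listed miRNAs), under a header that reads tpm. The submitters' processing notes name CASAVA, bcl2fastq 1.8.4 and Bowtie, while the miRNA database version is not stated in the sources at hand, nor is the handling of reads that match 2 names. In every library 6 pairs of names held the same reads within 1% plus 1 read, so a read could be counted under 2 names. Each value divided by what 1 read is worth in its library gave a whole number within 0.01 read, so reads were recovered. Depth ran from 539455 to 10256572 reads. The floors cover counting error only, because PCR copies of a molecule were not marked.

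TMM factors were computed on recovered reads over all names, and miRNAs were kept by edgeR's filterByExpr (minimum count 10, minimum total 15). limma 3.58.1 with an intensity trend was run on log2(TMM-normalized RPM + 1), two-sided, on the 6 libraries of each comparison, with Benjamini-Hochberg adjustment over all miRNAs tested and a threshold of 0.05. The added 1 RPM makes changes of low miRNAs look smaller. Levels per library use TMM factors over the 12 libraries. Changes, and the counts of members whose groups did not overlap, use factors over the 6 libraries compared. Levels and changes can therefore differ. In CC against CP_7 the median change of the members was 0.51 with factors over 6 libraries and 0.78 in the fit of all 12. Ratios took 0.5 reads added to each count and an exact permutation test over 369600 arrangements. R 4.3.3, edgeR 4.0.16, DESeq2 1.42.0, Python 3.11.15 and matplotlib 3.10.9 were used, and the procedure was tested on simulated data.

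Members, lists and tests were chosen with earlier results of these data known. Named miRNAs were the members, the other listed miRNAs of their hairpins and of the X chromosome cluster, in each list up to 2 called miRNAs of the largest change, and for each member the non-member with the highest r among miRNAs with a mean of at least 50 reads. The ratio of miR-16b to miR-16a was added after its values were seen. Replicate numbers shared by the labels were checked as pairs: deviations of same-numbered libraries from their group means correlated with r between -0.29 and 0.17, and all 3 pairs exceeded 0.1 for CC against CP_7 only. Alternatives were other scalings, pseudocounts, filters, tests (edgeR's quasi-likelihood test and DESeq2 on recovered reads), a fit of all libraries, the replicate block, miR-16a and miR-16b summed, a 2-fold threshold and leaving out each library.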

Additional observations from a re-analysis of the deposited data

How the results depend on the processing

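Of the 26 member changes called, 8 were called in the same direction in every alternative fit that keeps the name, and 18 kept their direction in all of them. The fit with miR-16a and miR-16b summed was not scored for either of these names. With at least 2-fold added, 2 members were called in CP_14 against CP_7, 1 in CP_14 against CP_0, 2 in CC against CP_7 and 0 in CC against CP_0, where no member reached 2-fold. CC against CP_14 had 7 calls with upper-quartile factors, 5 higher and 2 lower, beside 120 and 86 of all miRNAs. With the library size without miR-21-5p it had 7, again 5 higher and 2 lower, beside 139 and 66 of all miRNAs. CC against CP_0 had 5 calls with library size only, all lower, beside 30 higher and 112 lower of all miRNAs. With DESeq2 it had 1, lower, beside 61 higher and 57 lower. Leaving out single libraries gave 5 to 6 calls in CP_7 against CP_0, 2 to 4 in CP_14 against CP_7, 2 to 5 in CP_14 against CP_0, 4 to 6 in CC against CP_14, 5 to 6 in CC against CP_7 and 1 to 2 in CC against CP_0. The lowest counts came without CP_14 replicate 3 (CP_14 against CP_7), without CP_14 replicate 1 (CP_14 against CP_0) and without CP_0 replicate 3, CC replicate 2 or CC replicate 3 (CC against CP_0). The log2 differences of the ratios ran from 2.11 to 2.54 (miR-15a to miR-16a), 0.91 to 1.20 (miR-15b to miR-16b), 0.80 to 1.33 (miR-195 to miR-497), 1.03 to 1.38 (miR-424-5p to miR-503-5p) and 1.29 to 2.05 (miR-424 arms) when single libraries were left out.

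With library size only, which moves the median of all miRNAs, the sign turned for miR-16b (0.54) and miR-195 (0.62) in CP_7 against CP_0, for miR-16b (-0.42), miR-195 (-0.80) and miR-497 (-0.43) in CP_14 against CP_7, for miR-16b (0.11) in CP_14 against CP_0, for miR-15a (-0.24), miR-15b (-0.44) and miR-16b (-0.55) in CC against CP_14, for miR-15a (-1.17), miR-16b (-0.97), miR-195 (-0.75), miR-424-5p (-0.42), miR-497 (-0.095) and miR-503-5p (-0.61) in CC against CP_7, and for miR-15a (-0.049) and miR-195 (-0.14) in CC against CP_0. With the size without miR-21-5p it turned for miR-195 (-0.24, CP_14 against CP_7), miR-15a (-0.16, CP_14 against CP_0), miR-16b (0.24) and miR-497 (0.17, CC against CP_0). Upper-quartile factors turned miR-15a (-0.22) and miR-15b (-0.22) in CP_7 against CP_0, miR-15a in CP_14 against CP_7 (0.026) and CP_14 against CP_0 (-0.19) and miR-16b in CC against CP_0 (0.0098). The fit of all 12 libraries turned miR-16b (0.10) and miR-497 (0.038) in CC against CP_0. Leaving out 1 library turned the sign of 7 changes, of which only that of miR-15b in CC against CP_7 was a call. The values ran from -0.18 to 0.17 for miR-15a in CP_7 against CP_0 (below 0 without CP_7 replicate 1 or 3), from -0.14 to 0.19 for miR-15b in CP_7 against CP_0 (below 0 without CP_7 replicate 2), from -0.26 to 0.12 for miR-15a in CP_14 against CP_7 (above 0 without CP_7 replicate 1 or 3 or CP_14 replicate 2), from -0.11 to 0.18 for miR-195 in CP_14 against CP_7 (below 0 without CP_14 replicate 3), from -0.15 to 0.24 for miR-15a in CP_14 against CP_0 (below 0 without CP_14 replicate 1 or 3), from -0.55 to 0.071 for miR-15b in CC against CP_7 (above 0 without CP_7 replicate 2) and from -0.058 to 0.026 for miR-16b in CC against CP_0 (above 0 without CP_0 replicate 2). The cause was not tested beyond the construction of each alternative.

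With the replicate number as a block, the calls of CC against CP_7 stayed at 6. Its same-numbered libraries had r of 0.12 to 0.17, which does not establish that they were paired. There 6 of 6 libraries correlated best with their own number, against 0 or 1 of 6 in the other comparisons. In those it is not known whether libraries of the same number share more than that number. The block gave 5 calls in CP_7 against CP_0, 2 in CP_14 against CP_7 (miR-15b and miR-16b were not called), 4 in CP_14 against CP_0, 4 in CC against CP_14 and 1 in CC against CP_0 (miR-15b and miR-195 were not called). Depth limits CP_7 most, where miR-424-5p, miR-497 and miR-503-5p rested on 38, 46 and 30 reads over the 3 libraries.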
